A study of Homo sapiens with 6 samples.

Results

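The MYC, MAX and MXD network is a small family of basic helix-loop-helix leucine zipper transcription factors that meet on the same DNA word, the E-box. The members were taken by gene symbol from a list of 10 genes, and 9 of them (MYC, MYCL, MAX, MXD1, MXD3, MXD4, MXI1, MNT and MLX) were found among the 15953 genes measured. MYCN was not analysed here. The study asked how the centriole gene STIL affects bladder cancer cells, and RNA was sequenced from EJ, an established human bladder cancer cell line. By the sample labels and the methods of the authors, the shNC group was EJ carrying a lentiviral negative-control short hairpin RNA and the shSTIL group was EJ with stable lentiviral knockdown of STIL, whereas the headers of the deposited tables write si, the usual short form for small interfering RNA, for both groups. Each group had 3 libraries, and no other treatment was named for either group. The labels do not say whether the replicates were separate cultures, so the p-values measure only the spread between these samples, which may be technical. The number of hairpins and of clones was not given in the sources used here, so loss of STIL and any other effect of the hairpin cannot be told apart.

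MAX is the shared partner of the network. MYC and its relative MYCL bind DNA as dimers with MAX and recruit coactivators, whereas the MXD proteins, MXI1 and MNT compete for MAX and recruit the SIN3-HDAC corepressor to the same sites. MLX dimerises with MLXIP and MLXIPL, which carry glucose sensing, and also with part of the MXD group, and MGA brings MAX to a Polycomb complex. MYC is often gained in bladder cancer, where as in other tumours it drives ribosome production, nucleotide synthesis and glycolysis. In normal tissue a shift from MYC to MXD partners accompanies exit from the cell cycle.

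Expression is given as log2 CPM, the log2 of the read count scaled by library size with a small constant added. The log2 CPM also allowed the reads of each gene to be recovered, and the totals were 16352700, 16431200 and 16214800 reads in shNC replicates 1 to 3 and 16901600, 16879600 and 16734500 reads in shSTIL replicates 1 to 3. A gene was called when its limma p, adjusted over all genes by the Benjamini-Hochberg (BH) method, was under 0.01. The targeted gene was checked first. STIL stood at 5.98, 6.10 and 6.01 log2 CPM in the shNC libraries and at 4.05, 4.06 and 4.01 log2 CPM in the shSTIL libraries. All shSTIL libraries lay below all shNC libraries, and STIL mRNA was at 25.2% of the control level (log2 fold change -1.99, standard error 0.05, limma BH-adjusted p = 6.10e-12).

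The epithelial keratin genes KRT8 and KRT18 and the mesenchymal gene VIM were abundant in every library. KRT18 had 10049 to 10491 reads in the shNC libraries and 10384 to 10825 reads in the shSTIL libraries, and VIM had 23480 to 23924 and 15492 to 15819 reads. The urothelial and epithelial markers were mixed. KRT5, KRT20, UPK2 and CDH1 had at most 5 reads in any library and GATA3 had at most 9, while EPCAM and UPK1B had at most 21 and 20 and UPK1A had at most 33. The luminal transcription factor genes PPARG, with 302 to 405 reads, and FOXA1, with 104 to 178 reads, were expressed. The endothelial genes PECAM1, VWF and CDH5 had at most 11 reads in any library. The macrophage gene CD68 had 173 to 250 reads, and the muscle and fibroblast genes ACTA2 and COL1A1 had at most 111 and 59. Some of these genes moved with the group: KRT8 (log2 fold change -0.70), FOXA1 (-0.53), UPK1B (-1.12, at a mean of only -0.30 log2 CPM), VIM (-0.68), FN1 (-1.19) and COL1A1 (-0.96) were called lower and PPARG (0.26) and ACTA2 (0.87) higher by limma, and their part in the results of the network was not tested.

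Across all genes, 7509 of 15953 were called in shSTIL compared with shNC, 3750 higher and 3759 lower. Without shSTIL replicate 3 the count was 4900, from fewer samples. Of the 7509 calls, 507 were at a mean under 1 log2 CPM, where they are less certain: edgeR also called 372 of the 507 and DESeq2 193. No called member lies that low. Within the network, 6 of 9 members were called, beside 47.1% of all genes. MYC, MAX, MXD1 and MLX were higher, 4 of 9 members beside 23.5% of all genes, and MXD3 and MXD4 were lower, 2 of 9 members beside 23.6% of all genes. MYCL, MXI1 and MNT were not called. The groups did not overlap in 7 of 9 members, beside 60.3% of all genes. The mean was at least 3 log2 CPM in 8 of 9 members, in MXD1 only through shSTIL (2.79 in shNC, 3.70 in shSTIL). Of these 8 members 6 were called, and of all 9943 genes at that level 65.2% were called. In bulk RNA, a change in the number of cells that express a gene and a change in RNA per cell cannot be told apart.

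MYC, the activating factor of the network, stood at 7.73, 7.63 and 7.69 log2 CPM in the shNC libraries and at 8.38, 8.42 and 8.44 log2 CPM in the shSTIL libraries. In reads this was 3394, 3224 and 3286 against 5681, 5893 and 5894. Every shSTIL library lay above every shNC library, and the libraries of each group lay close together, with a standard deviation of 0.05 log2 CPM in shNC and 0.03 in shSTIL. MYC mRNA was 1.66-fold higher in shSTIL (95% interval 1.58 to 1.75, log2 fold change 0.73, limma BH-adjusted p = 9.78e-10). Among the 9943 genes at a mean of at least 3 log2 CPM, 1031 changed by at least as much in either direction. MYCL, a relative of MYC known from small cell lung cancer, was barely detected, with 1, 4 and 6 reads in shNC and 2, 1 and 1 reads in shSTIL, too few for a fold change to be given.

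MAX, the dimer partner of MYC and of the MXD proteins, lies at chr14:65006174-65102695 on the minus strand (GENCODE 29, GRCh38). It stood at 4.85, 4.82 and 4.91 log2 CPM in shNC and at 5.18, 5.28 and 5.22 log2 CPM in shSTIL. The groups did not overlap, and MAX mRNA was 1.29-fold higher (95% interval 1.19 to 1.39, log2 fold change 0.37, limma BH-adjusted p = 4.32e-05). The rise of MAX was smaller than that of MYC, so the log2 ratio of MYC to MAX within a library went from 2.87, 2.81 and 2.78 in shNC to 3.20, 3.14 and 3.22 in shSTIL. The ratio was higher in all shSTIL libraries than in all shNC libraries, by 0.37 on the log2 scale.

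**Figure D1:**
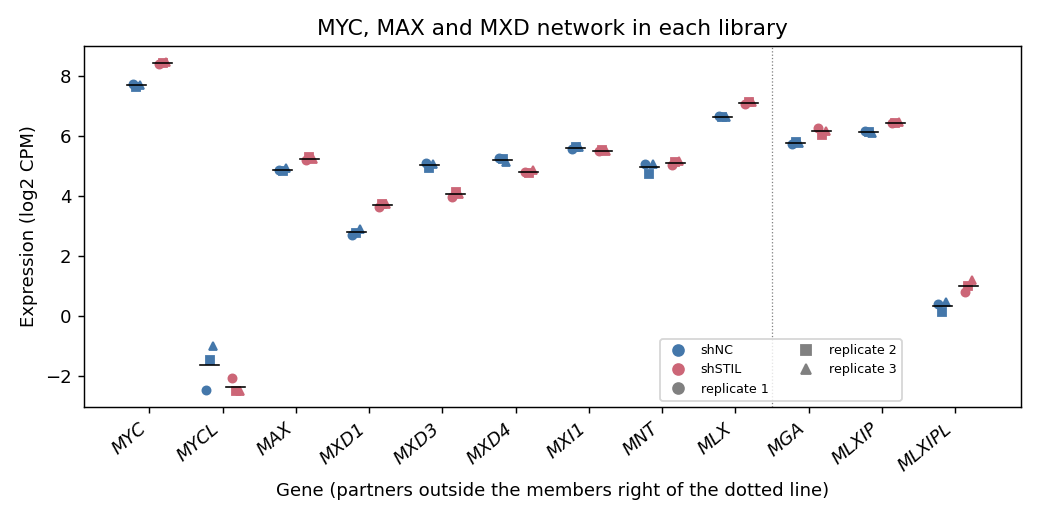
Expression (log2 CPM) of the 9 members and 3 partner genes in each of the 6 libraries, with shNC in blue, shSTIL in red, replicates by marker shape and group means as black lines. MYC, MAX, MXD1 and MLX lie higher in shSTIL, MXD3 and MXD4 lie lower, and the groups overlap for MNT and MYCL.

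The MXD genes encode repressors that compete with MYC for MAX, and they did not move together. MXD1, classically induced when cells differentiate, lies at chr2:69897688-69942945 on the plus strand. It stood at 2.71, 2.77 and 2.90 log2 CPM in shNC and at 3.64, 3.73 and 3.73 log2 CPM in shSTIL, or 103, 109 and 117 reads against 211, 226 and 223. The groups lay far apart compared with their spread. MXD1 had the largest rise among the members, 1.87-fold (95% interval 1.62 to 2.17, log2 fold change 0.91, limma BH-adjusted p = 3.04e-06).

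MXD3, which unlike its relatives is expressed in proliferating cells around S phase, lies at chr5:177301461-177312757 on the minus strand and had the largest fall. It stood at 5.08, 4.92 and 5.06 log2 CPM in shNC and at 3.95, 4.12 and 4.07 log2 CPM in shSTIL. No library of either group came near the other group. MXD3 mRNA was at 50.8% of the control level (log2 fold change -0.98, 95% interval -1.13 to -0.83, limma BH-adjusted p = 5.79e-08). MXD1 and MXD3, members of the same repressor subfamily, thus changed by similar amounts in opposite directions.

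MXD3 shares exon bases with neighbouring genes. In GENCODE 29, 926 of the 5154 exon bases of MXD3 (17.97%) are also in exons of RAB24 on the same strand, and 1158 (22.47%) are in exons of PRELID1 on the opposite strand. RAB24, a small GTPase of the autophagy pathway, stood at 5.58, 5.48 and 5.52 log2 CPM in shNC and at 6.04, 6.07 and 5.96 log2 CPM in shSTIL, a log2 fold change of 0.50 (limma BH-adjusted p = 6.25e-07). RAB24 thus moved opposite to MXD3. PRELID1, a mitochondrial lipid carrier gene, differed by -0.08 on the log2 scale and was not called (limma BH-adjusted p = 0.171). The strand setting of the counting was not given in the sources used here, so reads in the shared bases cannot be told apart. For MXD1, 237 of 6351 exon bases (3.73%) are shared with SNRNP27 on the same strand, and SNRNP27 differed by 0.17 on the log2 scale (limma BH-adjusted p = 0.0106, not called). These neighbours were named for their shared bases and were not part of the naming rule.

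MXD4, a repressor usually expressed in resting and differentiating cells, lies at chr4:2247432-2262294 on the minus strand. It stood at 5.24, 5.21 and 5.13 log2 CPM in shNC and at 4.78, 4.76 and 4.86 log2 CPM in shSTIL. All shSTIL libraries lay below all shNC libraries, and MXD4 mRNA was at 76.0% of the control level (log2 fold change -0.40, 95% interval -0.51 to -0.28, limma BH-adjusted p = 2.83e-05). MXI1, a MAX-binding repressor close to the MXD proteins, stood at 5.56, 5.62 and 5.61 log2 CPM in shNC and at 5.49, 5.51 and 5.48 log2 CPM in shSTIL. The groups did not overlap, but the difference of -0.10 (95% interval -0.20 to -0.01) was small and MXI1 was not called (limma BH-adjusted p = 0.0510). MNT, the broadly expressed antagonist of MYC, stood at 5.05, 4.74 and 5.06 log2 CPM in shNC and at 5.01, 5.14 and 5.15 log2 CPM in shSTIL. The groups overlapped, and shNC replicate 2 lay apart from the others. The difference of 0.15 (95% interval -0.02 to 0.32) did not pass the test (limma BH-adjusted p = 0.131), and without shNC replicate 2 it was 0.045 (limma BH-adjusted p = 0.516).

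**Figure D2:**
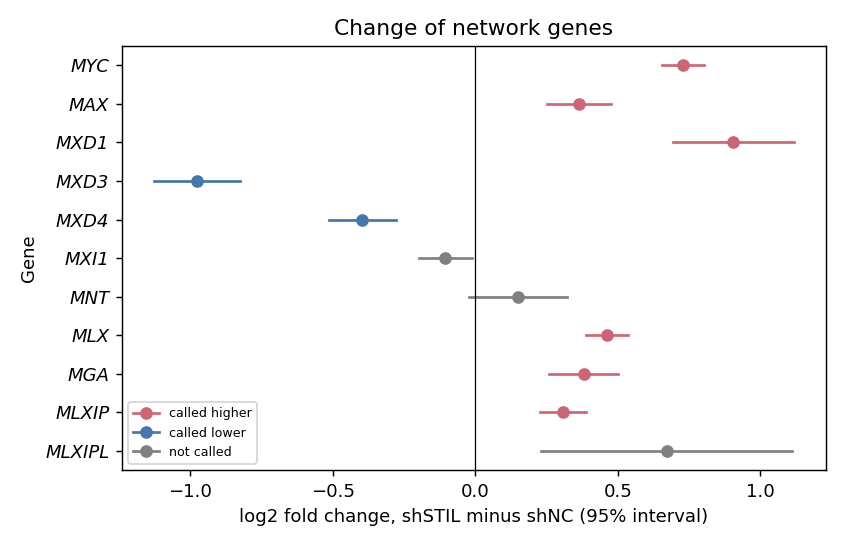
Log2 fold change of each network gene, shSTIL minus shNC, as a point with its 95% interval from limma, in red when called higher, blue when called lower and grey when not called. MXD1 (0.91) and MYC (0.73) have the largest rises among the members and MXD3 (-0.98) the largest fall. MYCL is left out because it had at most 6 reads in any library.

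MLX, which links the network to the glucose-sensing factors, lies at chr17:42567068-42573239 on the plus strand. It stood at 6.65, 6.64 and 6.62 log2 CPM in shNC and at 7.06, 7.12 and 7.12 log2 CPM in shSTIL. The groups were well separated, and MLX mRNA was 1.38-fold higher (95% interval 1.31 to 1.45, log2 fold change 0.46, limma BH-adjusted p = 7.54e-08). In the annotation 770 of its 4259 exon bases (18.1%) are shared with PSMC3IP on the opposite strand, which differed by -0.15 on the log2 scale and was not called (limma BH-adjusted p = 0.0339).

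Each member was also tested alone by permuting its 6 values exactly, over all 20 ways to label 3 libraries as shSTIL, two-sided. The smallest p this exact permutation test can give is 0.1. It gave 0.1 for each of the 7 members whose groups did not overlap, 0.3 for MNT and 0.2 for MYCL.

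The core E-box CACGTG and its variants CACGCG and CATGTG were searched on both strands in RefSeq promoters (GRCh38.p14, 250 bases before to 50 after each start). Of the 9 members, 8 had an entry, and MYC, which had none, was not searched. CACGTG was found for 3 of 8 members, MXD4, MNT and MLX, beside 1519 of 12818 genes (11.9%) with an entry. CACGCG was found for 2 of 8 members, MXD3 and MXI1, beside 20.3% of genes, and CATGTG was found for 1 of 8 members, MYCL, beside 10.7% of genes. The 3 stretches with CACGTG are shown because the genes that hold it moved differently: MLX rose, MXD4 fell and MNT was not called. They are printed 5′ to 3′ on the strand of the gene, with the E-box in capitals. The MXD4 stretch is chr4:2262322-2262359 (minus strand, E-box 238 bases before the start), the MNT stretch is chr17:2401228-2401293 (minus strand, 193 bases before the start) and the MLX stretch is chr17:42567010-42567075 (plus strand, 50 bases before the start). The MLX stretch has 8 bases inside a GENCODE exon of MLX, and the MXD4 and MNT stretches have none inside exons of their genes.
MXD4: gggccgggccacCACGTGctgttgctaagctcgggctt
MNT: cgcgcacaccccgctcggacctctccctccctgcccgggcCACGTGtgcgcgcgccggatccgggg
MLX: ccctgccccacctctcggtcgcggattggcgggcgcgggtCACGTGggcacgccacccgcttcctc

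A matching word describes the letters of a promoter and not binding. Among genes at a mean of at least 3 log2 CPM, CACGTG was present for 377 of 2696 genes called higher (13.98%), 333 of 2720 called lower (12.24%) and 375 of 2900 not called (12.93%). Across 5 lists of classical MYC target genes it was present for 24 of 54 genes with an entry (44.4%).

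The partners outside the members were MGA, MLXIP and MLXIPL. MGA, the very large protein that tethers MAX to Polycomb, stood at 5.74, 5.80 and 5.76 log2 CPM in shNC and at 6.26, 6.01 and 6.17 log2 CPM in shSTIL. The groups did not overlap, and MGA was called higher (log2 fold change 0.38, limma BH-adjusted p = 5.79e-05). The call was lost in 4 of the 6 fits that left out a library, without shNC replicates 1, 2 and 3 in turn and without shSTIL replicate 3, where the limma BH-adjusted p was 0.0168, 0.0119, 0.0151 and 0.0218. MLXIP, the glucose-sensing partner of MLX also called MondoA, stood at 6.17, 6.13 and 6.09 log2 CPM in shNC and at 6.43, 6.42 and 6.46 log2 CPM in shSTIL, a log2 fold change of 0.31 (limma BH-adjusted p = 9.99e-06). MLX and MLXIP thus both rose. MLXIPL, the related factor ChREBP of liver and fat, had 19, 16 and 20 reads in shNC and 28, 32 and 37 reads in shSTIL, and was not called (limma BH-adjusted p = 0.0124).

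The mRNA balance within a library does not depend on scaling between libraries. These differences are not corrected for transcript length, so only their change between the groups can be read, not which gene is more abundant. Relative to MAX, MXD3 went from 0.23, 0.09 and 0.15 in shNC to -1.23, -1.16 and -1.15 in shSTIL on the log2 scale. MXD4 minus MAX went from 0.39, 0.39 and 0.23 to -0.40, -0.52 and -0.36, and MXI1 minus MAX from 0.71, 0.80 and 0.70 to 0.31, 0.23 and 0.26. MXI1 itself was not called, and most of this difference came from MAX. MNT minus MAX overlapped between the groups, with 0.20, -0.08 and 0.15 in shNC against -0.16, -0.14 and -0.07 in shSTIL. MXD1 was the exception among the repressors and rose relative to MAX, from -2.14, -2.05 and -2.01 to -1.54, -1.55 and -1.49.

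The ratio of MYC to each repressor showed the same division. MYC minus MXD3 went from 2.64, 2.71 and 2.63 in shNC to 4.43, 4.30 and 4.37 in shSTIL, a 3.26-fold change of the ratio. MYC minus MXD4 changed 2.18-fold, MYC minus MXI1 1.78-fold and MYC minus MNT 1.49-fold, each upward and with no overlap between the groups. MYC minus MXD1 moved the other way, from 5.02, 4.86 and 4.79 to 4.74, 4.69 and 4.71, a change to 0.886-fold. These are ratios of mRNA and were not tested.

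**Figure D3:**
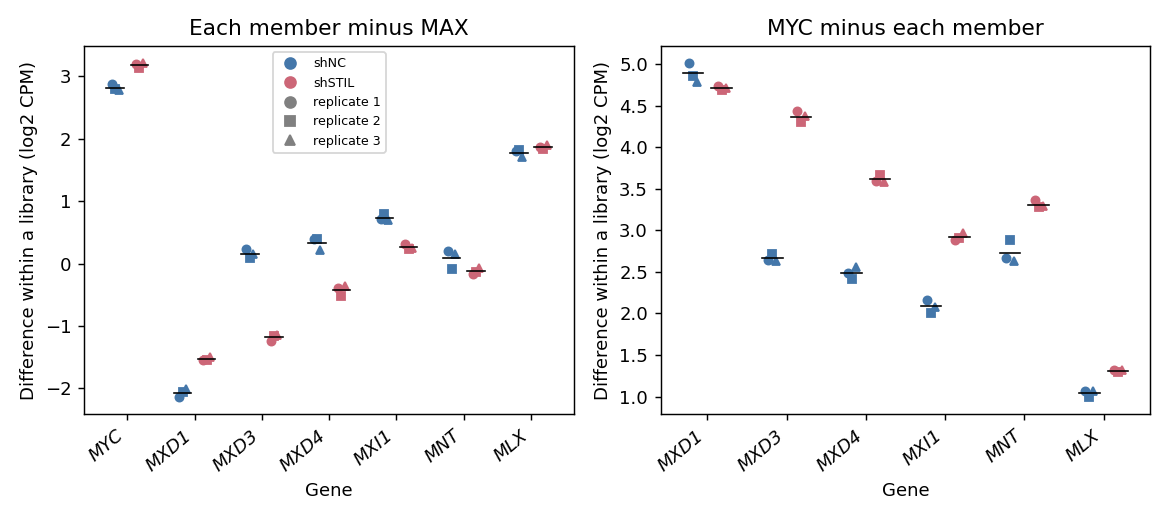
Difference in log2 CPM between 2 network genes within each library, each member minus MAX on the left and MYC minus each member on the right, with shNC in blue, shSTIL in red and black lines for group means. MYC gained on MXD3, MXD4, MXI1, MNT and MLX in every shSTIL library, and only MYC minus MXD1 is lower in shSTIL.

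Levels of different genes were compared as log2 CPM per kilobase of the longest coding transcript. Here reads were divided by the total reads of each library. The log2 CPM above used library sizes adjusted by factors of 0.981 to 1.019, so differences between groups are not the same on the 2 scales. In shNC, MYC was the most abundant network gene at 6.42 ± 0.04 (SD, n = 3), followed by MLX at 5.24 ± 0.02. MXD3 at 3.81 ± 0.08 and MXI1 at 3.78 ± 0.04 did not differ beyond their spread, and neither did MAX at 3.18 ± 0.04 and MXD4 at 3.15 ± 0.06. MLXIP (3.03), MNT (2.60), MGA (1.89), MXD1 (0.26) and MLXIPL (-1.55) followed. In shSTIL, MYC reached 7.19 ± 0.04 and MLX 5.75 ± 0.04, ahead of MXI1 at 3.72 ± 0.02 and MAX at 3.59 ± 0.06. MXD3 at 2.87 ± 0.09, MNT at 2.80 ± 0.08 and MXD4 at 2.79 ± 0.05 did not differ beyond their spread on this length, and MXD1 at 1.22 ± 0.06 was still the lowest repressor. This order depended on the transcript length used. With the median coding transcript, MAX stood at 5.22 in shNC, next to MLX at 5.33 and far above MXD4 at 3.15, and MXD4 lay below MLXIP at 3.76 and MNT at 3.44. In shSTIL on this length, MXD4 at 2.79 lay below MNT at 3.63 and MXD3 at 3.46. MYC remained the most abundant and MXD1 the lowest repressor with both lengths.

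The genes nearest to the most raised and the most lowered member were taken by the root mean square difference of log2 CPM, centred on the shNC mean, over the 6 libraries. Nearest to MXD1 were TTC7B, a scaffold of the lipid kinase PI4KA (difference 0.0254, log2 fold change 0.93), and SRPRB, a subunit of the signal recognition particle receptor (0.0336, log2 fold change 0.94). Nearest to MXD3 were HADH, an enzyme of fatty acid oxidation (0.0355, log2 fold change -0.96), and SRP14, a signal recognition particle protein (0.0376, log2 fold change -0.97).

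The SIN3-HDAC corepressor, through which MXD proteins, MXI1 and MNT silence genes, had more subunits called lower than higher. Of 17 measured subunits, 9 were called lower (52.9%), 3 higher (17.6%) and 5 were not called, beside 23.6% lower and 23.5% higher over all genes and 32.8% and 32.4% of genes at a mean of at least 3 log2 CPM. The median log2 fold change was -0.18 beside 0.01 over all genes. The deacetylase HDAC1 had 2332, 2448 and 2330 reads in shNC and 1590, 1693 and 1686 reads in shSTIL (log2 fold change -0.60, limma BH-adjusted p = 1.05e-08). The histone chaperone subunit RBBP4 (-0.60) and the bridging subunit SAP30 (-0.55) also fell. RBBP7, the most abundant of the subunits by reads, fell by 0.40 on the log2 scale. SAP30L, a close relative of SAP30, rose by 0.63, and the subunits ARID4A (0.20) and SIN3B (0.15) rose slightly. The call of SIN3B was lost whichever library was left out (limma BH-adjusted p 0.0104 to 0.0548) and without the mean-variance trend (limma BH-adjusted p = 0.0440). That of SAP30 was lost without each shNC replicate and without shSTIL replicates 1 and 2 (limma BH-adjusted p 0.0102 to 0.0164), and that of ARID4A without replicates 1 and 3 of either group (limma BH-adjusted p 0.0110 to 0.0148) and in DESeq2 (BH-adjusted p = 0.0192).

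Of 15 coactivators and cofactors of MYC, 4 were called higher and 4 lower, 26.7% in each direction, which is close to the shares over all genes (23.5% and 23.6%). Of genes at a mean of at least 3 log2 CPM, 32.4% were called higher and 32.8% lower. The acetyltransferase CREBBP rose by 0.77 on the log2 scale (1287, 1312 and 1226 reads in shNC, 2380, 2201 and 2359 reads in shSTIL, limma BH-adjusted p = 3.17e-09). The acetyltransferase KAT5 rose by 0.33 and the elongation cyclin CCNT1 by 0.37, whereas CDK9, the kinase partner of CCNT1, fell by 0.39. HCFC1, a MYC-binding host cell factor, fell by 0.52, and the helicase RUVBL2 fell by 0.44. TRRAP, the large scaffold of acetyltransferase complexes and the most abundant of this list by reads, differed by -0.02 and was not called. The call of CCNT1 was lost without shNC replicate 3 and without each shSTIL replicate (limma BH-adjusted p 0.0118 to 0.0233).

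MYC protein is short-lived. Of 13 genes that set its turnover, 4 were called higher (30.8%) and 6 lower (46.2%), beside 32.4% and 32.8% of genes at a mean of at least 3 log2 CPM. USP36, a nucleolar deubiquitinase that removes ubiquitin from MYC, rose by 0.76 (limma BH-adjusted p = 2.65e-09). GSK3B, the kinase that marks MYC for degradation, rose by 0.48, and the scaffold AXIN1 rose by 0.62. The phosphatase inhibitor CIP2A (-0.73), which protects MYC, and the ubiquitin ligase STUB1 (-0.46) fell. AURKA, the mitotic kinase in the question of the study and a known stabiliser of MYCN protein, had 2519, 2435 and 2617 reads in shNC and 2299, 2250 and 2273 reads in shSTIL. Its log2 fold change was -0.24 (limma BH-adjusted p = 0.000119), and the call was lost without shNC replicate 1 and without each shSTIL replicate in turn (limma BH-adjusted p up to 0.0149), and also in limma without the mean-variance trend (BH-adjusted p = 0.0102). HUWE1, the most abundant of the list by reads, was not called. MYC protein was not measured.

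The Polycomb complex that MGA and MAX enter, PRC1.6, had 4 of 11 measured subunits called higher and 4 lower, 36.4% in each direction, which is near the 32.4% and 32.8% of genes at a mean of at least 3 log2 CPM. YAF2 (0.68), its relative RYBP (0.46) and the E2F partner TFDP2 (0.25) rose, whereas the chromobox proteins CBX1 (-0.44) and CBX3 (-0.36) and TFDP1 (-0.44) fell. TFDP1 and TFDP2, which are close relatives, thus moved in opposite directions.

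The classical targets that MYC activates were measured in 5 lists of 64 genes together. Of these, 20 were called higher (31.2%) and 22 lower (34.4%), beside 23.5% and 23.6% of all genes, and 32.4% and 32.8% of genes at a mean of at least 3 log2 CPM. With MYC mRNA 1.66-fold higher, the targets together had similar numbers called in each direction, while the lists differed.

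Of 22 genes of the nucleolus and ribosome assembly, 10 were called higher (45.5%) and 0 lower, beside 32.4% and 32.8% of genes at a mean of at least 3 log2 CPM, with a median log2 fold change of 0.19. RRP12, a ribosome export factor, had 1067, 994 and 1041 reads in shNC and 1969, 1851 and 1740 reads in shSTIL (log2 fold change 0.75, limma BH-adjusted p = 2.13e-08). WDR43 (0.62) and UTP20 (0.52), which process pre-ribosomal RNA, rose too. The abundant nucleolar genes NPM1, which differed by 0.03, and NCL, the nucleolin gene, which differed by 0.06, were not called. With limma, 1 gene of the list was lower at an unadjusted p under 0.05 and also at a BH-adjusted p under 0.05. This was FBL, the fibrillarin gene, named after its values were seen (log2 fold change -0.08, limma BH-adjusted p = 0.0495). With edgeR and DESeq2, 0 genes of the list were called lower.

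Of 11 genes of polyamine and nucleotide synthesis, 2 were called higher (18.2%) and 4 lower (36.4%), beside 32.4% and 32.8% of genes at a mean of at least 3 log2 CPM. ODC1, the polyamine enzyme that is the textbook E-box target of MYC, had 14848, 15296 and 14546 reads in shNC and 11376, 11795 and 11307 reads in shSTIL. It fell by 0.46 on the log2 scale (limma BH-adjusted p = 2.47e-08) in libraries where MYC rose. The folate enzyme MTHFD2 (-0.98), PRPS2 (-0.87), which makes the nucleotide precursor PRPP, and the purine enzyme PAICS (-0.78) fell further. SHMT2 (0.17) and CTPS1 (0.15) were called higher by small amounts. The call of SHMT2 was lost without shNC replicates 1 and 3 and without shSTIL replicates 2 and 3 (limma BH-adjusted p 0.0118 to 0.0144), and that of CTPS1 without shNC replicates 1 and 3 and without each shSTIL replicate (limma BH-adjusted p 0.0108 to 0.0148). Both were also lost without the mean-variance trend (limma BH-adjusted p = 0.0165 and 0.0204). CAD, the enzyme that starts pyrimidine synthesis and a classical MYC target, differed by -0.08 and was not called.

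Among 9 translation factors and chaperones, 7 were called lower (77.8%) and 1 higher (11.1%), beside 32.8% and 32.4% of genes at a mean of at least 3 log2 CPM, and the median log2 fold change was -0.43. The mitochondrial chaperonin HSPE1 had 1404 to 1487 reads in shNC and 607 to 638 reads in shSTIL (log2 fold change -1.30, limma BH-adjusted p = 4.47e-11). Prohibitin, PHB, fell by 1.15 on the log2 scale, EIF5A by 0.56 and the most abundant gene of the list by reads, the helicase EIF4A1, by 0.43. EIF2S1, a subunit of the initiation factor that carries the first transfer RNA, rose by 0.36.

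In the list of glycolysis, glutamine and uptake genes, 5 of 13 were called higher (38.5%) and 6 lower (46.2%), beside 32.4% and 32.8% of genes at a mean of at least 3 log2 CPM. LDHA, the enzyme that makes lactate, had 40884, 41899 and 41994 reads in shNC and 9318, 9550 and 9056 reads in shSTIL, a log2 fold change of -2.25 (limma BH-adjusted p = 6.64e-14). The glycolytic enzymes PKM (-1.27) and ENO1 (-0.83), the most abundant of the list by reads, and the splicing factor HNRNPA2B1 (-1.49), which acts on PKM, fell as well. The amino acid transporter SLC7A5 rose by 0.79 and its heavy chain SLC3A2 by 0.64, while the glucose transporter SLC2A1, named after its values were seen, fell by 0.62. Several abundant genes of these lists have processed pseudogenes, and reads that the counting could split among copies make their levels uncertain.

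Among 9 cell cycle genes of the MYC programme, 5 were called lower (55.6%) and 2 higher (22.2%), beside 32.8% and 32.4% of genes at a mean of at least 3 log2 CPM. E2F2 (-1.48), E2F1 (-0.87) and CDCA7 (-0.77), which drive entry into S phase or act within it, fell most. CDK4, the most abundant of the list by reads, fell by 0.21. The helix-loop-helix inhibitor ID2 (0.46) and the ubiquitin ligase scaffold CUL1 (0.21) rose, the latter with a call that was lost without shSTIL replicate 3 (limma BH-adjusted p = 0.0122). The mean of ID2 was at least 3 log2 CPM only through shSTIL (2.93 in shNC, 3.39 in shSTIL). TERT, the telomerase gene that MYC activates, had 400, 334 and 322 reads in shNC and 383, 393 and 383 reads in shSTIL, with overlapping groups and no call.

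**Figure D4:**
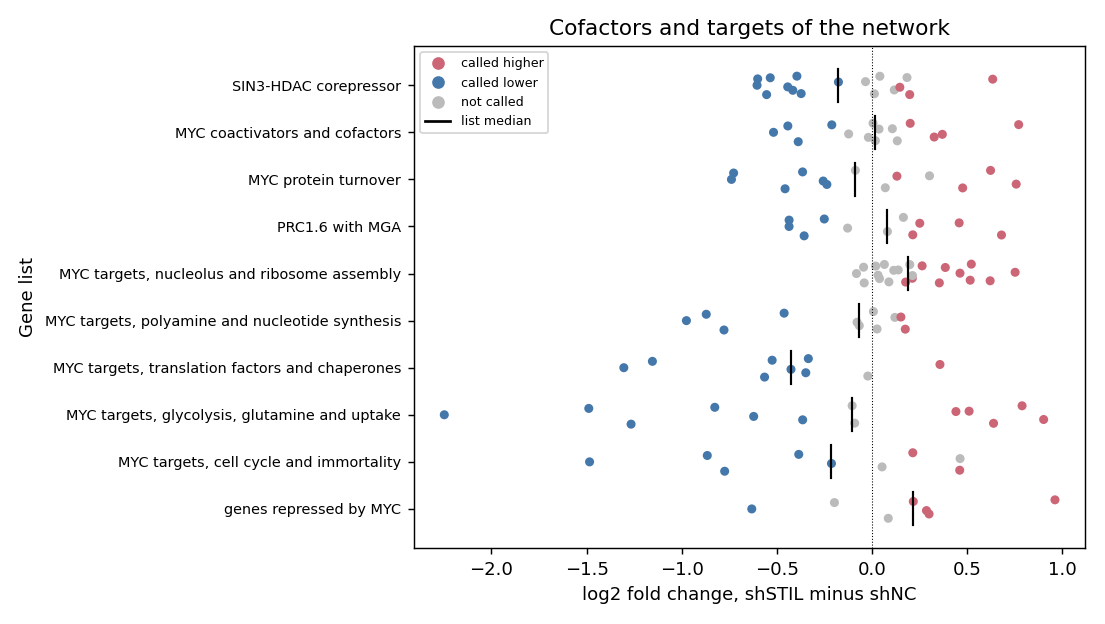
Log2 fold changes, shSTIL minus shNC, of the measured genes of 10 lists of network cofactors and targets, 1 point a gene, red when called higher, blue when called lower and grey when not called, with a black line at the list median. The nucleolar list has 10 genes called higher and 0 lower, while 7 of 9 translation and chaperone genes are called lower.

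MYC also represses genes, among them CDK inhibitor genes that it reaches through the zinc finger protein MIZ1. Of 7 measured, 4 were called higher (57.1%) and 1 lower (14.3%), beside 23.5% and 23.6% of all genes. Of genes at a mean of at least 3 log2 CPM, 32.4% were called higher and 32.8% lower. The 2 genes of the list that were not called lay below that level. CDKN2B, which encodes the CDK inhibitor p15, rose by 0.96 (104, 99 and 131 reads in shNC, 222, 237 and 233 reads in shSTIL, limma BH-adjusted p = 9.69e-06). The mean of CDKN2B was at least 3 log2 CPM only through shSTIL (2.81 in shNC, 3.77 in shSTIL). CDKN1B (0.30), the stress gene GADD45A (0.29) and CDKN1A, which encodes p21 and is the most abundant of the list by reads (0.22), rose less. NDRG1, a gene of growth arrest and hypoxia, fell by 0.63. The call of GADD45A was lost without shSTIL replicate 3 (limma BH-adjusted p = 0.0115). GAS1 had at most 1 read in any library.

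Downstream of MLX and MLXIP, the arrestin gene ARRDC4 had 59, 63 and 54 reads in shNC and 179, 197 and 190 reads in shSTIL. Every shSTIL library was above every shNC library, and ARRDC4 rose by 1.57 on the log2 scale (limma BH-adjusted p = 8.39e-08), more than any member. The gene is a known glucose-responsive target of MLX with MLXIP, and the stretch around its CACGTG, 210 bases before the start at chr15:97960453-97960518 (plus strand, no base in a GENCODE exon of ARRDC4), is shown for that reason with the E-box in capitals.
ARRDC4: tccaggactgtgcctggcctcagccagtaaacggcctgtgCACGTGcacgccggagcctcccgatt

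TXNIP, the best known target of MLXIP, had 0 reads in every shNC library and 1, 0 and 3 reads in the shSTIL libraries, so no fold change could be given. Whether the gene was silent or its reads were missed in the counting was not tested.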

How the data were processed

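RNA-seq of 3 shNC and 3 shSTIL libraries was analysed from deposited tables. Per the methods of the authors, reads were mapped with Bowtie2 and RSEM gave the deposited estimated counts, whole or fractional. The authors converted counts with edgeR to the deposited log2 CPM used here (15953 genes, prior count 2). The submitters named hg38. Reads were recovered from log2 CPM; they matched the deposited counts of the 4 libraries with a count table, and 87.1% to 87.4% of values were whole within 0.005. Rounded reads entered edgeR 4.0.16, which called 7830 genes, and DESeq2 1.42.0, which called 6739. The main test was limma 3.58.1 (R 4.3.3), its prior variance following mean expression. Tested on simulated data, this fit made false calls among genes under a mean of 1 log2 CPM, more than its threshold allows, and missed many small changes; without those genes it did better. It was kept as chosen before the data were examined. Members and lists were chosen with earlier results of these data known. Named genes were the members, partners, STIL, fixed targets, and each list's 3 largest rises and falls among called genes with a mean of at least 3 log2 CPM and its most abundant gene. PHB1 was matched as PHB. UPK3A, KRT14, KRT19, PTPRC, CD3E and DCN were not analysed here. Some other genes of the lists are not reported here. Intervals cover the spread between libraries.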

Additional observations from a re-analysis of the deposited data

How the results depend on the processing

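Alternatives were limma without the trend, quantile normalization, median centring, only genes at a mean of at least 1 log2 CPM, a pseudocount of 0.5 reads, an adjusted p under 0.05, edgeR, DESeq2, a replicate block and each library left out in turn. The 6 called members and STIL kept their direction and call in all 15, MXI1 and MNT were called in none, and MYCL in none of the 14 that held it. The log2 fold change of MYC ran from 0.70 to 0.77, that of MXD1 from 0.86 to 0.97 and that of MXD3 from -1.03 to -0.93. Leaving out a library gave 4900 to 5638 called genes, with 4900 without shSTIL replicate 3, from fewer samples, and limma without the trend gave 5855. The MYC targets called lower numbered 22 to 25. Of 77 other genes, 10 lost and 3 gained a call under some alternative. Signs turned for 3 uncalled genes: TRRAP gave 0.012 under quantile normalization, 0.023 under median centring and -0.060 to 0.027 with a library left out, TERT gave -0.00047 to 0.15 and NPM1 -2.57e-05 to 0.063 with a library left out. The cause was not tested.

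No shared effect of the replicate number was seen, since the deviations of same-numbered libraries had correlations of -0.152, -0.0673 and -0.0451 over 9943 genes. The labels do not say whether same-numbered libraries were prepared together. The replicate block gave 6898 called genes, 6 called members and 22 MYC targets called lower, and the calls of ARID4A and SIN3B were lost with it (limma adjusted p 0.0115 and 0.0144). Low read counts limit MYCL, TXNIP and GAS1. MLXIPL passed under 4 alternatives, with a limma adjusted p of 0.00847 to 0.00974 under 3 of them and 0.0124 where the threshold was 0.05.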

Other observations

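Summed over the 9 members, expression came to 490, 471 and 483 CPM in the shNC libraries and 641, 671 and 672 CPM in the shSTIL libraries. Summed over the 64 MYC target genes, expression came to 26247, 26318 and 26363 CPM in shNC and 19526, 19754 and 19550 CPM in shSTIL. The glycolysis, glutamine and uptake list held the largest part of this sum, with 14327, 14235 and 14448 CPM in shNC and 8698, 8796 and 8658 CPM in shSTIL. The nucleolar list moved the other way, from 4168, 4380 and 4323 CPM to 4797, 4851 and 4790 CPM. In these sums, reads were divided by the total reads of each library. No cause of these sums was tested.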
